A study of Oryctolagus cuniculus with 36 samples.

Results

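The genes described here encode 9 enzymes of bile acid synthesis in the liver: CYP7A1, CYP8B1, CYP27A1, CYP7B1, HSD3B7, AKR1D1, AMACR, SLC27A5 and BAAT. They were chosen by name, to cover the classic route, the alternative route, the steps both routes share and the final conjugation. No value entered that rule, though earlier results of these data were known. Of the 9 names, 8 were matched among the 23394 genes of the expression table, 7 by symbol and CYP7B1 by its RefSeq gene ID (LOC100343291), and all 8 passed the filter on low counts. BAAT, which joins bile acids to glycine or taurine, was not matched.

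RNA sequencing was done on rabbit (Oryctolagus cuniculus) liver in 3 groups, named FA, FK and WT in the sample titles. All 36 libraries, WT included, carry the same disease entry, hereditary tyrosinemia type I, in which loss of fumarylacetoacetate hydrolase (FAH) blocks the last step of tyrosine breakdown. The titles place the libraries in 9 sets of 4, with 3 sets a group. The labels do not spell out FA and FK, and give no allele, drug, age or sex for any group, nor whether the 4 libraries of a set come from 1 animal or several. The livers of treated animals were trypsinized before RNA extraction, and the treatment is not described further. Counts of the 4 libraries were summed, so the set is the unit of the tests except in 2 alternatives, which used the 36 single libraries or library 1 of each set. The p-values of the summed sets measure only the spread between sets, which may be partly technical.

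The liver turns cholesterol into bile acids by a classic route, which starts in the endoplasmic reticulum with CYP7A1, and an alternative route, which starts in the mitochondria with CYP27A1. Both routes then change the sterol ring, shorten the side chain in peroxisomes and attach an amino acid. CYP7A1 is the step that sets the rate of the classic route, and bile acids returning to the liver repress its transcription through the nuclear receptors FXR (gene NR1H4) and SHP (gene NR0B2). In rabbit bile, acids derived from cholic acid, whose synthesis needs CYP8B1, predominate.

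FAH, the gene that defines the disease, had 25.7, 24.7 and 19.6 CPM (counts per M counts after TMM scaling, a correction for library composition, where M stands for mega) in the FA sets. It had 16.4, 11.8 and 14.6 CPM in the FK sets, against 237, 271 and 218 CPM in the WT sets. All FA and FK sets lay far below all WT sets, with log2 changes of -3.37 for FA minus WT (adjusted p = 0.00183) and -4.08 for FK minus WT (adjusted p = 0.000466; edgeR's quasi-likelihood test, adjusted by Benjamini and Hochberg's method over 14939 genes, as for every adjusted p below unless another tool is named). Library totals ran from 15.1 to 22.5 M counts in FA, 11.7 to 16.1 M in FK and 14.2 to 18.7 M in WT. The 19 genes of secreted hepatocyte proteins summed to 283940 to 321643 CPM in FA, 218673 to 328141 CPM in FK and 246715 to 312718 CPM in WT, so the label of liver held in every set.

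FK set 3 stood apart from FK sets 1 and 2 in genes other than the enzymes. Erythroid genes (14 measured) summed to 790 and 2321 CPM in FK sets 1 and 2 and to 16.2 CPM in FK set 3, against 20.1 to 83.0 CPM in the WT sets. Cell division genes (16 measured) summed to 437 and 921 CPM in FK sets 1 and 2 and to 21.4 CPM in FK set 3, against 16.8 to 24.4 CPM in WT. The 3 FA sets held 16.4 to 24.0 CPM of the cell division genes, near WT. Of the erythroid genes they held 9.47 to 24.3 CPM, in the low part of the WT range or below it. The erythroid list's median log2 change in FA minus WT was -2.15, beside 0.00 over all genes, with 0 genes called. Results for FK are therefore given with and without its set 3. Without it, only sets 1 and 2 of FK remain. Set 3 was singled out from these same data, so adjusted p-values without it describe sets 1 and 2 and not FK as a group.

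The 8 enzymes together were lowest in FK sets 1 and 2. Their summed level was 2720, 2356 and 2970 CPM in the FA sets and 273, 346 and 2477 CPM in the FK sets, against 4261, 3736 and 3581 CPM in the WT sets. By this sum, every FA and FK set lay below every WT set, and FK set 3 lay among the FA sets. The sum leans on the genes with most counts, and CYP7B1 made up 1080 of the 2477 CPM in FK set 3. For 5 of 8 enzymes, FK set 3 lay below every FA set. The share of all genes with that order was not counted, so this only describes the enzymes. Because these are bulk samples, fewer hepatocytes and less RNA per hepatocyte cannot be told apart.

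**Figure D1:**
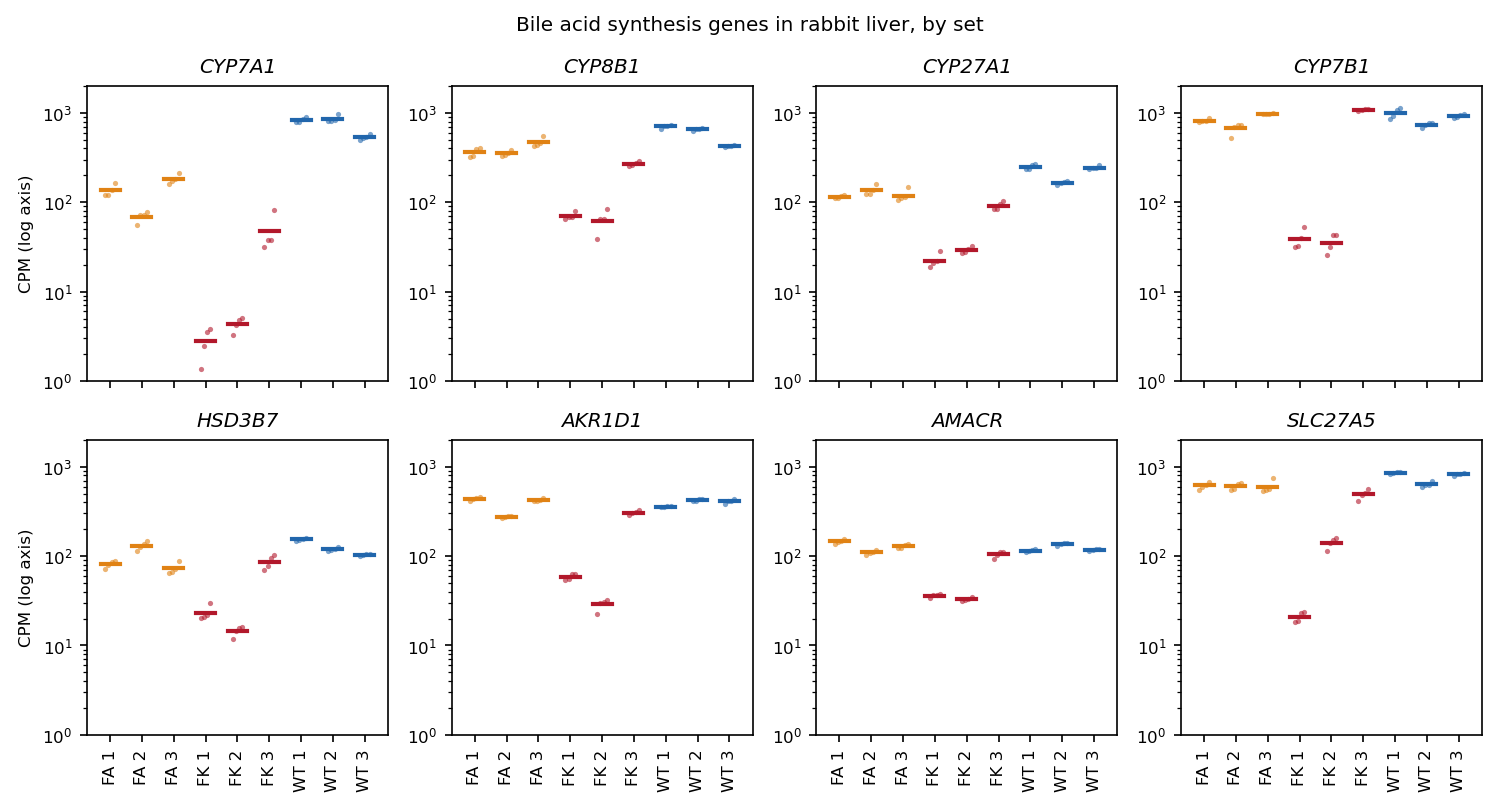
Level of each of the 8 enzymes (CPM, log axis) in the 9 sets; bars are the summed sets and points their 4 libraries, drawn in order of value. CYP7A1 has 2.78 and 4.35 CPM in FK sets 1 and 2, against 534 to 856 CPM in WT, while FK set 3 reaches the WT range for CYP7B1 only.

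CYP7A1, which opens the classic route, had the largest fitted difference of the 8 enzymes in each of the 3 comparisons. It had 137, 69.2 and 181 CPM in the FA sets and 2.78, 4.35 and 47.5 CPM in the FK sets, against 826, 856 and 534 CPM in the WT sets. No group overlapped another: WT was highest, FA lay between, and FK was lowest, with its set 3 closest to FA. The group means were 129 ± 56.4 CPM in FA and 18.2 ± 25.4 CPM in FK, against 739 ± 178 CPM in WT (SD, n = 3 each).

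In FK, CYP7A1 fell, with a log2 change of -5.34 from WT (SE 1.11, 95% interval -7.87 to -2.82, adjusted p = 0.0414). The mean was 40.6-fold lower in FK than in WT, and 207-fold lower when FK set 3 was left out (adjusted p = 5.39e-05). The call held under 7 of the 17 alternatives that gave the gene an adjusted p, which ran from 1.64e-10 (limma-voom on the 36 libraries) to 0.153. The low sets still rested on 174 and 287 counts, so the gene was detected there.

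For FA minus WT, the log2 change of CYP7A1 was -2.52 (SE 0.98, 95% interval -4.73 to -0.30), a mean 5.72-fold lower in FA than in WT. It did not pass the test across all 9 sets (adjusted p = 0.431), in which the spread of FK enters. It did pass when FA and WT were fitted alone (adjusted p = 0.0234) and when FK set 3 was left out (adjusted p = 0.0180), and its adjusted p over all alternatives that gave one ran from 0.000502 (limma-voom on the 36 libraries) to 0.766. FA minus FK gave 2.83 (95% interval 0.58 to 5.07, adjusted p = 0.155).

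CYP8B1, the hydroxylase that directs intermediates of the classic route to cholic acid, had 365, 354 and 470 CPM in the FA sets. It had 69.7, 62.0 and 269 CPM in the FK sets, against 706, 659 and 423 CPM in the WT sets. All FK sets lay below all WT and all FA sets, while FA set 3 exceeded the lowest WT set. The log2 change was -2.16 for FK minus WT (95% interval -3.44 to -0.87, adjusted p = 0.0597), which missed the threshold. The FK mean was 4.46-fold below WT, or 9.05-fold without FK set 3 (adjusted p = 0.000162). FA minus WT was -0.59 (95% interval -1.82 to 0.65, adjusted p = 0.782), and FA minus FK was 1.57 (adjusted p = 0.158).

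CYP27A1, the mitochondrial sterol hydroxylase, opens the alternative route and also starts side-chain oxidation in the classic one. It had 116, 138 and 119 CPM in the FA sets and 22.3, 29.5 and 91.8 CPM in the FK sets, against 249, 166 and 243 CPM in the WT sets. The groups were again separate, with FK lowest and WT highest. CYP27A1 fell in FK, with a log2 change of -2.20 from WT (SE 0.50, 95% interval -3.33 to -1.06, adjusted p = 0.0473). The mean was 4.59-fold lower in FK than in WT, and 8.47-fold lower without FK set 3 (adjusted p = 0.0001). Its adjusted p ran from 1.89e-08 (limma-voom on the 36 libraries) to 0.161 over 18 alternatives, and 7 of them kept the call. FA minus WT was -0.82 (95% interval -1.91 to 0.27, adjusted p = 0.612), and FA minus FK was 1.38 (95% interval 0.27 to 2.48, adjusted p = 0.158).

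CYP7B1, the oxysterol hydroxylase that follows CYP27A1 on the alternative route, showed the widest split within FK. It had 816, 670 and 976 CPM in the FA sets and 39.2, 35.0 and 1080 CPM in the FK sets, against 993, 739 and 920 CPM in the WT sets. FK set 3 had the highest level of all 9 sets, at 122% of the WT mean, and 29.1 times the mean of the other two FK sets. FA and WT overlapped. The log2 change was -1.20 for FK minus WT (95% interval -3.73 to 1.33, adjusted p = 0.522), -0.11 for FA minus WT (95% interval -2.60 to 2.39, adjusted p = 0.989) and 1.09 for FA minus FK (adjusted p = 0.586). Without FK set 3, the FK mean was 23.8-fold below WT (adjusted p = 3.38e-05).

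Among the ring-modifying enzymes, HSD3B7, the dehydrogenase that acts on the hydroxylated sterols of both routes, had 81.8, 131 and 73.0 CPM in the FA sets. It had 23.2, 14.4 and 86.7 CPM in the FK sets, against 154, 119 and 104 CPM in the WT sets. All FK sets lay below WT, and FA overlapped both other groups. FK minus WT was -1.60 (95% interval -2.97 to -0.24, adjusted p = 0.134), and the FK mean was 3.04-fold below WT, or 6.70-fold without FK set 3 (adjusted p = 0.000547). FA minus WT was -0.40 (95% interval -1.74 to 0.94, adjusted p = 0.880).

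AKR1D1, the reductase that saturates the ring after HSD3B7, had 438, 276 and 425 CPM in the FA sets. It had 58.6, 28.8 and 307 CPM in the FK sets, against 356, 427 and 411 CPM in the WT sets. FK lay below WT in every set, and FA spanned the WT range. FK minus WT was -1.60 (95% interval -3.27 to 0.08, adjusted p = 0.204), with a mean 3.03-fold below WT, or 9.11-fold without FK set 3 (adjusted p = 0.000344). FA minus WT was -0.07 (95% interval -1.70 to 1.57, adjusted p = 0.989). A second row, LOC100343388, is also named AKR1D1 in the RefSeq table. Its levels were 223, 126 and 190 CPM in FA and 40.0, 18.9 and 153 CPM in FK, against 163, 225 and 235 CPM in WT, with the group means in the same order as in the first row. How reads were divided between the rows is uncertain, as it is for other similar copies among the CYP and AKR families.

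AMACR, the racemase that readies the side chain for peroxisomal shortening, lay nearest to WT of the 8 enzymes in FK sets 1 and 2. It had 148, 110 and 129 CPM in the FA sets and 36.1, 32.9 and 105 CPM in the FK sets, against 115, 136 and 117 CPM in the WT sets. FK lay below WT in all sets, with set 3 just under the lowest WT set, and FA overlapped WT. FK minus WT was -1.08 (95% interval -2.03 to -0.12, adjusted p = 0.145), with a mean 2.11-fold below WT, or 3.55-fold without FK set 3 (adjusted p = 0.000326). FA minus WT was 0.07 (95% interval -0.87 to 1.02, adjusted p = 0.976).

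SLC27A5, the bile acid CoA ligase that activates bile acids for conjugation by BAAT, differed between all 3 FK sets. It had 617, 607 and 597 CPM in the FA sets and 20.9, 140 and 490 CPM in the FK sets, against 861, 634 and 828 CPM in the WT sets. The groups did not overlap, and the 3 FA sets were close to each other. FK minus WT was -1.84 (95% interval -3.75 to 0.08, adjusted p = 0.201), with a mean 3.57-fold below WT, or 9.65-fold without FK set 3 (adjusted p = 0.00645). FA minus WT was -0.35 (95% interval -2.21 to 1.50, adjusted p = 0.928), and FA minus FK was 1.48 (95% interval -0.41 to 3.38, adjusted p = 0.328).

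**Figure D2:**
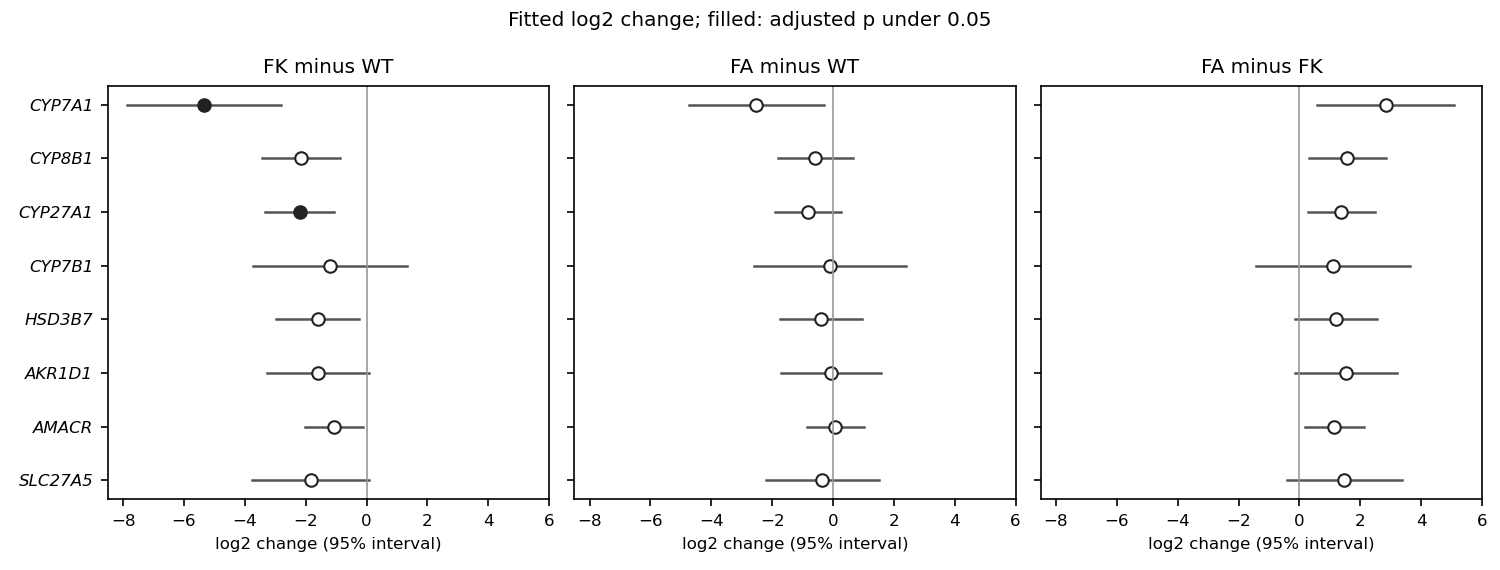
Fitted log2 change of each enzyme in 3 comparisons; points are edgeR estimates, lines 95% intervals, and filled points have an adjusted p under 0.05. Only CYP7A1 (-5.34) and CYP27A1 (-2.20) in FK minus WT are filled.

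Counted over the family, 2 of 8 enzymes passed the test in FK minus WT, both lower, where 4.77% of all genes tested were called and 1.73% were called lower. At an unadjusted p under 0.05 the count was 5, beside 26.9% of all genes. The enzymes' median log2 change was -1.72, beside 0.05 over all genes tested. All sets of FK lay below all sets of WT for 7 of 8 enzymes, CYP7B1 being the exception, and 13.4% of all genes showed that separation. Without FK set 3, all 8 enzymes were called lower, where 34.9% of all genes were called, 16.2% lower and 18.7% higher. Leaving out any of the other 8 sets gave 0 calls among the enzymes. DESeq2 called 3 of the 6 enzymes for which it gave an adjusted p, CYP8B1, CYP27A1 and HSD3B7, where it called 16.9% of all genes.

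With limma-voom on the 36 single libraries and the set as a random block, 8 of 8 enzymes were called lower in FK minus WT (19.2% of all genes called), 1 of 8, CYP7A1, lower in FA minus WT (3.44%), and 8 of 8 higher in FA minus FK (17.0%). This fit used 1 within-set correlation, 0.791, for all genes. Its p-values, here and for single enzymes above, can be too small where the libraries of a set agree more closely than that. CYP7B1 was called lower in FK (limma-voom adjusted p = 0.000699) although FK set 3 held its highest level of any set.

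In FA minus WT, 0 of 8 enzymes were called by edgeR, where 0.167% of all genes were called. At an unadjusted p under 0.05 the count was 1, CYP7A1, beside 10.2% of all genes, and DESeq2 called 0 of those 6 enzymes, where it called 2.18% of all genes. All FA sets lay below all WT sets for CYP7A1, CYP27A1 and SLC27A5, that is 3 of 8, beside 12.4% of all genes. The enzymes' median log2 change was -0.38, beside 0.00 over all genes. When FK set 3 was left out, CYP7A1 alone was called, where 1.60% of all genes were called, as it was in the fit of FA and WT alone, where 1.63% were.

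In FA minus FK, 0 of 8 enzymes and 0% of all genes were called by edgeR. At an unadjusted p under 0.05 the count was 4, beside 21.9% of all genes, and DESeq2 called 1, CYP8B1 (adjusted p = 0.0392), where it called 11.1% of all genes. FA lay above FK in every set for CYP7A1, CYP8B1, CYP27A1, AMACR and SLC27A5, that is 5 of 8, beside 8.24% of all genes. The median log2 change was 1.43, beside -0.02 over all genes. Without FK set 3, all 8 enzymes were called higher in FA, where 34.5% of all genes were called. The 3 comparisons share sets, so these counts do not stand independently of each other.

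**Figure D3:**
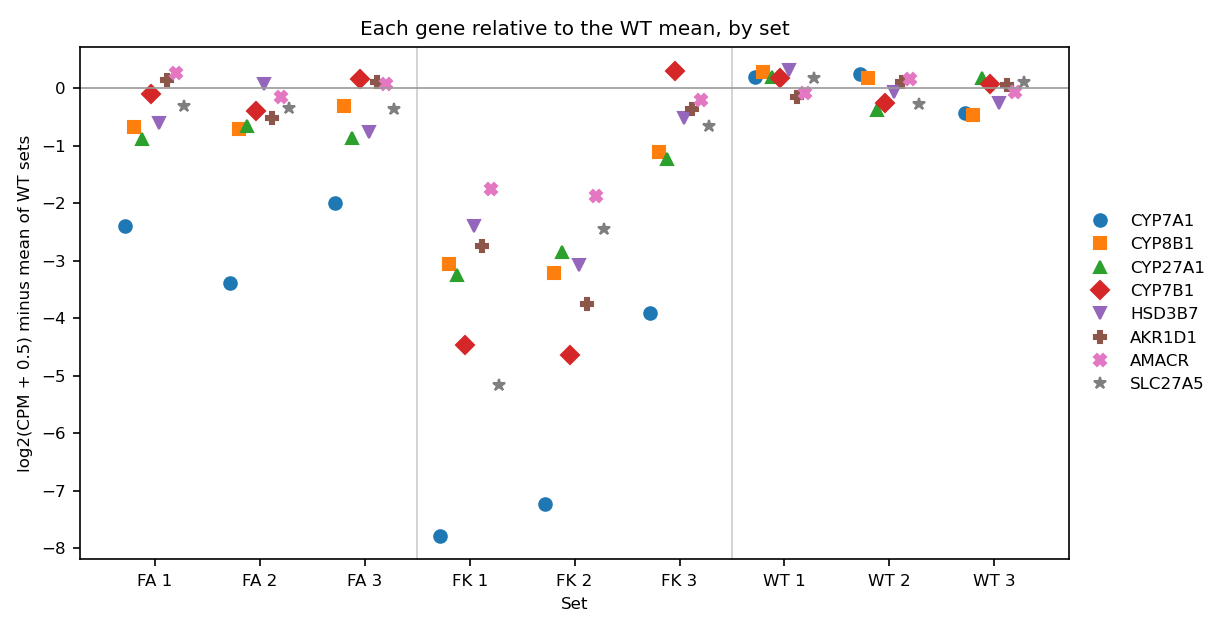
Level of each enzyme in every set as log2(CPM + 0.5) minus its mean over the WT sets. CYP7A1 is the lowest enzyme in all 3 FA and all 3 FK sets, and in FK set 3 the other 7 lie between -1.23 and 0.30.

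The balance between enzymes was followed as the log2 ratio of their CPM, set against the WT mean of the same ratio, so that gene length cancels. CYP8B1 relative to CYP7A1 was higher by 1.73, 2.67 and 1.69 in the FA sets and by 4.96, 4.15 and 2.82 in the FK sets, against -0.06 to 0.09 in the WT sets. CYP7A1 thus lay further below its WT mean than CYP8B1 did in every FA and FK set. CYP7B1 relative to CYP7A1 was higher by 2.29, 3.00 and 2.15 in FA and by 3.54, 2.73 and 4.23 in FK, against -0.49 to 0.51 in WT. This ratio did not divide FK set 3 from the other FK sets, although the CYP7B1 level did. On the alternative route, CYP7B1 relative to CYP27A1 was higher by 0.79, 0.26 and 1.01 in FA and stood at -1.21, -1.78 and 1.53 in FK, against -0.10 to 0.13 in WT, so its direction differed within FK. These ratios are descriptions and were not tested.

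Genes around the enzymes were read from lists by role. Of 7 tested genes of other synthesis steps, 0 were called in any comparison by edgeR (adjusted p under 0.05). That stands beside 4.77% of all genes in FK minus WT, 0.167% in FA minus WT and 0% in FA minus FK. The smallest p of this list belonged to ACOT8, a peroxisomal thioesterase, with 19.9, 28.2 and 23.3 CPM in FA and 15.2, 19.0 and 16.0 CPM in FK, against 29.6, 32.6 and 24.8 CPM in WT. Its FK minus WT change was -0.80 (adjusted p = 0.0512). The list's median was -1.02 in FK minus WT, beside 0.05 over all genes, and -0.12 in FA minus WT, beside 0.00. With FK set 3 left out, 5 of the 7 were called lower in FK, beside 16.2% of all genes.

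Of 11 genes that supply or remove cholesterol, 3 fell in FK relative to WT and 0 rose, beside 1.73% of all genes called lower. The list's median log2 change was -0.77, beside 0.05 over all genes. SOAT2, which esterifies cholesterol, had 17.6, 15.1 and 20.9 CPM in FA and 11.4, 16.6 and 15.7 CPM in FK, against 40.3, 43.5 and 37.1 CPM in WT. All 3 FK sets were low, including set 3, and the log2 change was -1.47 (adjusted p = 0.0166). SCARB1, the HDL receptor, had 117, 110 and 69.3 CPM in FA and 35.5, 55.7 and 67.6 CPM in FK, against 158, 145 and 143 CPM in WT, with a change of -1.49 (adjusted p = 0.0382). STARD4, a cholesterol carrier within the cell, had 133, 136 and 202 CPM in FA and 78.8, 61.9 and 85.4 CPM in FK, against 176, 214 and 134 CPM in WT, with a change of -1.21 (adjusted p = 0.0449). For all 3 genes FK set 3 lay with the other FK sets below WT. With each set scaled on the hepatocyte secreted proteins, SOAT2 and SCARB1 were called and STARD4 was not. Leaving out FK set 3 gave 10 lower calls of 11, beside 16.2% of all genes.

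Among 16 regulators, 1 rose and 1 fell in FK relative to WT, beside 4.77% of all genes called in either direction. PPARGC1A, a transcriptional coactivator of the fasting response, had 19.0, 17.1 and 18.5 CPM in FA and 37.3, 29.1 and 23.5 CPM in FK, against 9.90, 9.89 and 14.9 CPM in WT. All FK sets exceeded all FA sets, which exceeded all WT sets, and FK minus WT was 1.37 (adjusted p = 0.0314). NR1H3, which encodes the oxysterol receptor LXR-alpha, had 55.6, 53.0 and 39.0 CPM in FA and 22.4, 19.8 and 40.2 CPM in FK, against 59.3, 82.1 and 63.9 CPM in WT, with an FK minus WT change of -1.32 (adjusted p = 0.0472). The median of the list was -0.27 in FK minus WT and 0.03 in FA minus WT. The counts were 1 higher and 7 lower in FK without FK set 3, beside 18.7% and 16.2% of all genes.

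None of the 6 electron donors of P450 enzymes was called in the 3 comparisons by edgeR. FDXR, which passes electrons to ferredoxin for CYP27A1, had the smallest p, with 8.05, 9.85 and 7.16 CPM in FA and 6.14, 9.48 and 5.96 CPM in FK, against 5.72, 4.35 and 3.69 CPM in WT. Its FA minus WT change was 0.86 (adjusted p = 0.341). The 12 genes of peroxisome assembly also gave 0 calls, the smallest p being that of PEX14, a docking protein for import, at -1.06 in FK minus WT (adjusted p = 0.0532). The 11 bile acid and biliary lipid transporters gave 0 calls as well. ABCB4, which moves phosphatidylcholine into bile, had the smallest p among them, with 16.0, 17.3 and 4.77 CPM in FA and 346, 482 and 20.8 CPM in FK, against 25.1, 35.3 and 26.6 CPM in WT. FA minus FK was -4.48 (adjusted p = 0.115), and FK minus WT was 3.29 (adjusted p = 0.0735). It was high in FK sets 1 and 2 alone, the sets in which the enzymes were lowest. The 0 calls of these 3 lists stand beside 4.77% of all genes called in FK minus WT, 0.167% in FA minus WT and 0% in FA minus FK. In FK minus WT the median log2 change was -0.58 for electron donors, -0.36 for peroxisome genes and -0.77 for transporters, beside 0.05 over all genes. Without FK set 3, FK minus WT gave 1 lower call among the electron donors, 6 lower among the peroxisome genes, and 2 higher and 7 lower among the transporters, that is of 6, 12 and 11 genes, beside 16.2% of all genes called lower and 18.7% called higher.

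**Figure D4:**
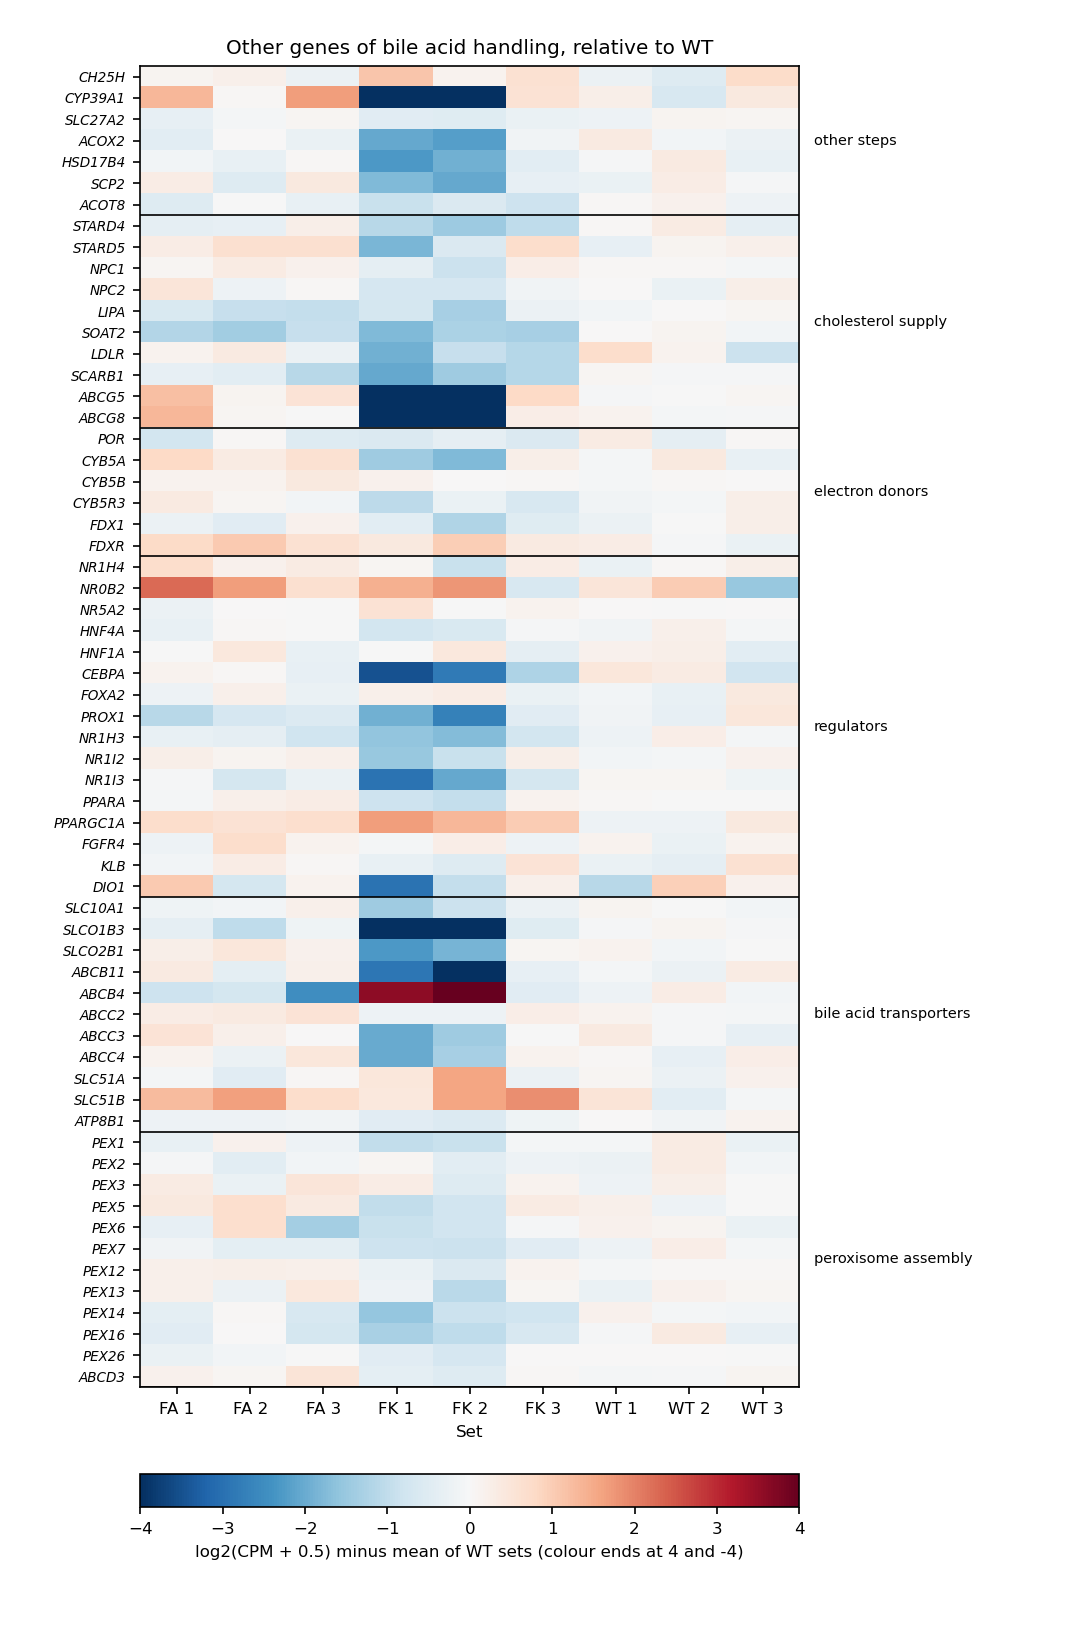
Colour map of log2(CPM + 0.5) minus the WT mean, with red above and blue below the WT mean. Down the page are the genes of 6 lists that reached at least 1 CPM in a set, and across are the 9 sets. SOAT2, STARD4 and SCARB1 are below WT in all 3 FK sets, while CYP39A1, ABCG5 and ABCG8 are far below it in FK sets 1 and 2 alone.

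Of the markers of other cells, neutrophil genes split the FK sets as erythroid and cell division genes did. The summed level of B and plasma cell genes split them the other way, but the median of that list did not. Neutrophil genes (10 measured) summed to 1199 and 2067 CPM in FK sets 1 and 2 and to 28.1 CPM in FK set 3, against 16.7 to 28.3 CPM in WT, and to 19.4 to 41.7 CPM in FA. Macrophage genes (10 measured) summed to 408 to 528 CPM in FA and 626 to 929 CPM in FK, against 707 to 930 CPM in WT. Bile duct genes (10 measured) summed to 186 to 194 CPM in FA and 109 to 188 CPM in FK, against 200 to 223 CPM in WT. Endothelial genes (11 measured) summed to 185 to 269 CPM in FA and 266 to 404 CPM in FK, against 321 to 380 CPM in WT. Stellate and fibroblast genes (12 measured) summed to 187 to 260 CPM in FA and 263 to 368 CPM in FK, against 320 to 376 CPM in WT. Macrophage, bile duct, endothelial and stellate sums were thus lower in every FA set than in every WT set. Genes of T and NK cells (11 measured) summed to 6.64 to 11.4 CPM in FA and 4.48 to 10.9 CPM in FK, against 10.8 to 13.4 CPM in WT. Genes of B and plasma cells (9 measured) summed to 29.5 to 39.2 CPM in FA and 4.89 to 30.0 CPM in FK, against 86.6 to 99.5 CPM in WT. These genes too summed lower in every FA set than in every WT set. Their summed FK values were 4.89 and 7.48 CPM in sets 1 and 2 and 30.0 CPM in set 3. The list's median log2 difference from the WT mean was -0.68, -0.35 and -0.81 in FK sets 1, 2 and 3. The split of the sum was thus not that of the median gene. No gene of these lists was at 0 counts over a group. The part of other cells in the enzymes' levels was not tested. When each set was scaled on the hepatocyte secreted proteins, the enzymes' median log2 change was -1.97 in FK minus WT, -0.48 in FA minus WT and 1.60 in FA minus FK, where the medians of all genes stood at -0.26, -0.07 and 0.22, and the calls were those of TMM scaling, CYP7A1 and CYP27A1 in FK minus WT.

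**Figure D5:**
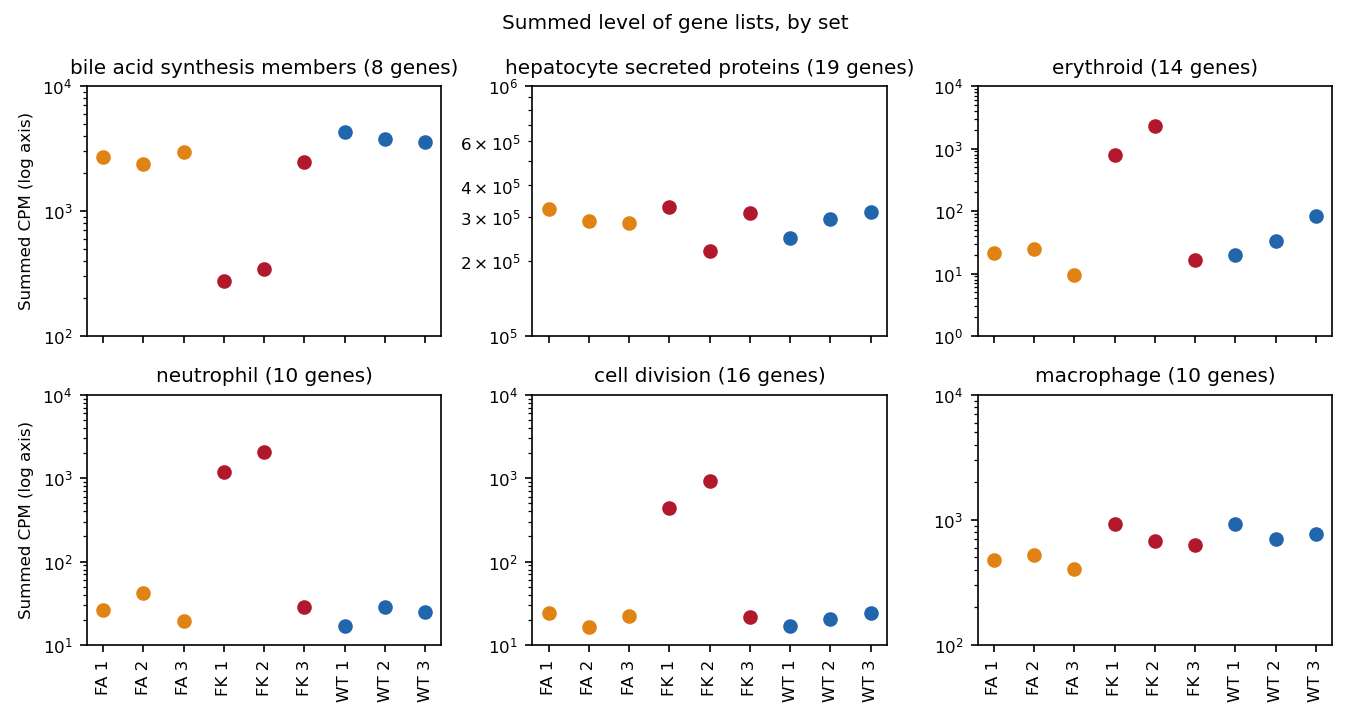
Summed CPM (log axis) of the 8 enzymes and of 5 marker lists in every set. FK sets 1 and 2 have 273 and 346 CPM of the enzymes and 790 and 2321 CPM of the erythroid genes, while the hepatocyte secreted proteins stay between 218673 and 328141 CPM in all 9 sets.

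Within sets the libraries differed little beside the sets themselves. The highest library exceeded the lowest by 1.03 to 2.83 times over the 72 combinations of enzyme and set (median 1.17), and in 66 of them by less than 1.5 times. The widest, for CYP7A1 in FK set 1, rested on 21 to 57 counts a library.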

How the data were processed

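Counts were read from 1 deposited table with 36 library columns, each matched to its sample title. As deposited by the authors, its values are whole numbers and are treated as estimated counts. Salmon 0.14.1 is named in the submitters' processing notes, without its role; not given in the sources used here are the annotation, genome build, strand setting and rounding. Per the labels, library construction used Illumina's TruSeq chemistry. Gene names came from the table and, for LOC identifiers, from RefSeq's gene table (assembly mOryCun1.1).

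The 4 libraries of a set were summed (53.2 to 78.6 M counts a set), since within sets Pearson's r of log2(CPM + 0.5) had a median of 0.996, against 0.982 between sets of a group. All 9 sets entered 1 fit on group in R 4.3.3 (edgeR 4.0.16; TMM scaling, filterByExpr, quasi-likelihood tests), with Benjamini-Hochberg adjustment over 14939 genes and a threshold of 0.05. The common biological coefficient of variation was 45.2%, with 6 residual degrees of freedom. The fit was tested on simulated data with less spread than these data and no divergent set. Its behaviour under a split like that of FK was not tested. Levels are CPM after TMM scaling, with SD over 3 sets. Levels are compared within a gene, not between genes, as transcript lengths were not used.

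DESeq2 1.42.0 (no adjusted p for CYP7A1 and AKR1D1), limma 3.58.1, other scalings and filters, a replicate block, fits of 2 groups, and leaving out each set were alternatives. Named genes were FAH, the 9 enzymes, up to 3 called genes per list (the gene of smallest p where none was called), and the 3 genes with the most similar pattern per enzyme. CYP39A1, ABCG5, ABCG8, CEBPA and the levels of CYP2C5 were added after their values were seen. The members and lists were chosen with earlier results of these data known. Sequences were not analysed here. Python 3.11.15, pandas 2.3.3 and matplotlib 3.10.9 were used for tables and figures.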

Additional observations from a re-analysis of the deposited data

Results flagged for a closer look

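For each of the 8 enzymes in each of the 9 sets, the 4 libraries were screened for 1 value far from the other 3, by Dixon's ratio of the gap to the whole range, at its 95% critical value. Of 72 combinations, 4 passed, and chance alone gives about 5%. CYP7A1 in library 4 of FK set 3 had 81.5 CPM, beside 31.6 to 38.2 CPM in the other 3 libraries. HSD3B7 in library 4 of FK set 1 had 29.8 CPM, beside 20.4 to 21.9 CPM. SLC27A5 in library 3 of FA set 3 had 746 CPM, beside 537 to 565 CPM. CYP8B1 in library 4 of WT set 1 had 659 CPM, beside 718 to 726 CPM.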

How the results depend on the processing

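The count of enzymes called in FK minus WT was 2 in the fit reported. It was 2 with RLE factors, scaling on hepatocyte proteins, no filter and a filter of 1 CPM, 3 in DESeq2, 0 in the fit of 2 groups, 1 with library 1 of each set alone, 8 in limma-voom on 36 libraries, and 0 to 8 leaving out each set. In FA minus WT (0 reported) it was 1 in the fit of 2 groups and in limma-voom, and 0 to 1 leaving out each set. In FA minus FK (0 reported) it was 1 in DESeq2, 8 in limma-voom, and 0 to 8 leaving out each set. Over all genes, FK minus WT gave 712 calls, against 458 with scaling on hepatocyte proteins, 2720 in DESeq2, 43 in the fit of 2 groups, 2448 in limma-voom, 189 with library 1 alone and 22 to 5396 leaving out each set. FA minus WT gave 25, against 341, 235 and 440 in DESeq2, the fit of 2 groups and limma-voom, and 2 to 247 leaving out each set. FA minus FK gave 0, against 1778 in DESeq2, 2169 in limma-voom and 0 to 5324 leaving out each set. Among the fits that left out a set, the highest counts over all genes came without FK set 3.

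In a fit that added set number as a replicate block, 0 enzymes were called in all 3 comparisons, and over all genes the calls were 47 in FK minus WT and 3 in FA minus WT. Same-numbered sets deviated with correlations of -0.13 to 0.13, and no label says that a number links sets.

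Of 143 values of single enzymes per comparison, 0 reversed in FK minus WT and in FA minus FK, and 5 in FA minus WT, all near 0: CYP7B1 at 0.04 with library 1 alone and 0.02 without FA set 2, AKR1D1 at 0.06 and 0.12 under the same settings, and AMACR at -0.04 without FA set 1. Leaving out each set, CYP7B1 ran from -0.25 to 0.02, AKR1D1 from -0.19 to 0.12 and AMACR from -0.04 to 0.17. Calls moved more than directions did. Of the 143 values in FK minus WT, 21 lost the call of the fit reported and 14 gained a call. In FA minus WT 3 gained a call, and in FA minus FK 17 did. The causes were not tested. With 3 sets a group, leaving out any 1 set changed the count of enzymes called in FK minus WT.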

Other observations

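CYP39A1, ABCG5, ABCG8 and CEBPA were picked after their values were seen. CYP39A1, an oxysterol hydroxylase, had 438, 178 and 556 CPM in FA and 6.87, 2.87 and 259 CPM in FK, against 206, 111 and 228 CPM in WT. ABCG5, which with ABCG8 exports sterols into bile, had 86.5, 40.7 and 55.5 CPM in FA and 0.0479, 0.0758 and 66.2 CPM in FK, against 36.6, 36.8 and 39.4 CPM in WT. ABCG8 had 73.5, 30.5 and 28.6 CPM in FA and 0.0320, 0.0303 and 35.3 CPM in FK, against 32.0, 27.6 and 27.9 CPM in WT. FK set 3 exceeded every WT set for all 3 genes. CEBPA, a transcription factor of hepatocytes, had 210, 199 and 152 CPM in FA and 16.9, 26.4 and 81.8 CPM in FK, against 264, 241 and 112 CPM in WT, with an FK minus WT change of -2.30 (edgeR adjusted p = 0.0555).

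Genes with the pattern most like each enzyme were found by Pearson's r of log2(CPM + 0.5) over the 9 sets, among 12585 genes with a symbol. These are descriptions, since the points share the group structure and the split of FK. From 46 genes (for SLC27A5) to 257 genes (for CYP7B1) exceeded an r of 0.95 with an enzyme, so the 3 named are not particular to it. CYP7A1 was nearest to HDAC3 (0.990), LYPD6B (0.988) and CAMK1D (0.986), and CYP8B1 to SEC24C (0.992), PPP1R3B (0.989) and DHRS4 (0.988). CYP27A1 was nearest to TNFRSF11A (0.993), EXT1 (0.990) and PGGHG (0.989). CYP7B1 was nearest to CYP2C5, CYP2C14 and CYP2C4 (0.992 each), genes of 1 cytochrome family, for which the counting between similar copies is uncertain. CYP2C5 had 1291, 526 and 3057 CPM in FA and 0.447, 0.212 and 2083 CPM in FK, against 786, 1053 and 927 CPM in WT. HSD3B7 was nearest to ENTPD8 (0.991), ACOX2 (0.983), which oxidizes the bile acid side chain, and TRIM14 (0.981). AKR1D1 was nearest to ADH2-2 (0.997), FAM8A1 and PDZK1 (0.995 each), AMACR to BID (0.997), SORBS2 (0.994) and PGER8 (0.992), and SLC27A5 to CRB3 (0.990), HAGH (0.983) and SLC6A12 (0.977). Between the enzymes themselves, r ran from 0.82 for AKR1D1 with SLC27A5 to 0.99 for AKR1D1 with AMACR.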
